A study of Mus musculus with 13 samples.

Results

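Dawn skin was set against dusk skin in 9 of the 13 pools of a time course of mouse back skin. The pools taken 2 h before and 2 h after the lights came on form the dawn group (ZT22, ZT46, ZT2, ZT26 and ZT50, 5 pools). Those taken 2 h before and 2 h after the lights went off form the dusk group (ZT10, ZT34, ZT14 and ZT38, 4 pools). ZT is the number of hours since the first lights on, so 22 h and 2 h, or 10 h and 14 h, are the times of day. Every group held male C57Bl6 mice at postnatal day 30, with hair follicles in anagen (active hair growth), housed with 12 h of light, then 12 h of darkness, and with food always present. The labels name no transgene and no treatment. The RNA of 3 mice was mixed in equal amounts for each array, so 15 mice stood behind dawn and 12 behind dusk. Each pool held other animals and the p-values below measure the spread between pools, while the spread between single mice is hidden by the pooling. Each group contains light and dark pools of both cycles, so the contrast asks about the time of day with light and dark spread over both sides. The 2 midday pools (ZT6, ZT30) and the 2 midnight pools (ZT18, ZT42) lie outside it and are used only to show levels.

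The circadian clock is a feedback loop in which CLOCK and BMAL1, the product of Arntl, bind E-boxes and switch on the Per and Cry genes, whose proteins then block them. REV-ERB proteins (Nr1d1, Nr1d2) repress Arntl through ROR elements, and the PAR bZIP factors DBP, TEF and HLF, whose genes the loop controls, act at D-boxes, where NFIL3 opposes them. In skin this loop runs in keratinocytes, hair follicles, dermal cells, fat and the thin panniculus muscle under the dermis, and the arrays read all of these at once.

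Of 16322 genes tested, 4 were higher at dusk (0.0245%) and 0 were higher at dawn (0%) in limma's moderated test at a Benjamini-Hochberg adjusted p under 0.05. The 4 were the period genes Per3 and Per2, the PAR bZIP factor Tef, and Mylk4, a kinase of the myosin light chain kinase family. All 4 passed again without the ZT46 pool, which carried liver transcripts (values below), and Rgs7bp, Cys1 and Fmo1 then joined them, making 7 genes (0.0429%) higher at dusk and again 0 higher at dawn. Before adjustment, 598 genes (3.66%) had p under 0.05 with dusk higher and 283 (1.73%) with dawn higher. An exact rank test over the 126 splits of the 9 pools, whose smallest possible two-sided p is 0.0159, gave 0 genes in either direction after adjustment, and 327 and 232 before it. Only genes without overlap (171 with dusk higher, 104 with dawn higher) reach that p. These are too few for any to pass after adjustment over 16322 genes, so this 0 says nothing about the 4. The dusk count hung on single pools: it was 0 without ZT10, ZT34 or ZT50, 1 without ZT26, 2 without ZT22 and 10 without ZT38. Of the 9 fits that each left out 1 pool, Mylk4 passed in 6, Per3 and Tef in 4 each and Per2 in 2. The groups of all 4 did not overlap, so their sign could not change in such fits. With all 13 pools in the fit sharing 1 estimate of spread, 14 genes (0.0858%) were higher at dusk and 2 (0.0123%) at dawn. Values are intensities and a difference is that of mean log2(intensity + 16), dawn minus dusk, with the standard error (SE) of the fit, so folds of dim genes are understated. Intensities are compared within a gene only.

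The promoters of Per3, Tef and Mylk4, which passed, and of Arntl, the dawn-side clock gene, are shown because the clock acts through short elements there. They are the 250 bases before the start in RefSeq's mouse table (GRCm38.p6), written 5′ to 3′ on the gene's strand, with capitals marking a D-box or an E-box. The windows are chr4:151044666-151044915 (minus strand) for Per3, chr15:81802423-81802672 (plus) for Tef, chr13:32783965-32784214 (minus) for Mylk4 and chr7:113207215-113207464 (plus) for Arntl; Tef and Arntl each have 2 windows in the table, and the one listed first is printed.
Per3: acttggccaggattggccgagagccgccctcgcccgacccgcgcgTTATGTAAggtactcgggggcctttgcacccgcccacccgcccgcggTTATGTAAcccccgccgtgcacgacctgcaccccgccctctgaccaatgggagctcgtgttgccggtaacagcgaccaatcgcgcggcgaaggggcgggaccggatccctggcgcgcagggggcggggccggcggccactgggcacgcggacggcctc
Tef: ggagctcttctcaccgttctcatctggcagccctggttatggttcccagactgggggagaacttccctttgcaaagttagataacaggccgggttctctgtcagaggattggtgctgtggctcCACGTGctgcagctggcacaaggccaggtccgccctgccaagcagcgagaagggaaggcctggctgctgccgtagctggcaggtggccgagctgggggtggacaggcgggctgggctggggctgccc
Mylk4: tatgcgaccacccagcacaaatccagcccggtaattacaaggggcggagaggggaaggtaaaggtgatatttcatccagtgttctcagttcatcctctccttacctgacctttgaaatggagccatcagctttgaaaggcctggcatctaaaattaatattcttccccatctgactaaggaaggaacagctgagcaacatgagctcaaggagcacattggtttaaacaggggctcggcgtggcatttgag
Arntl: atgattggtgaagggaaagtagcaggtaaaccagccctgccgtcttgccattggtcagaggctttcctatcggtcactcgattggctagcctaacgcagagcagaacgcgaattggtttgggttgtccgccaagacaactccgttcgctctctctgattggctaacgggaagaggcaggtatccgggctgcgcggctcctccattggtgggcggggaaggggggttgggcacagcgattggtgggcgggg
The Per3 window held 2 D-boxes, starting 205 and 158 bases before the start, and the Tef window held 1 E-box, starting 127 bases before it. The Mylk4 and Arntl windows held none of the letters searched. These were, on both strands, the E-box CACGTG, the E-box-like CACGTT, the D-box TTATGTAA or TTACGTAA, and the ROR element (RORE), in the form of the core AGGTCA or GGGTCA after its A/T-rich lead. CACGTG and CACGTT share their first 5 letters and were counted apart.

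Windows were matched for 12847 of the 16322 genes, and 7.81% of these held CACGTG, 4.13% CACGTT, 0.716% a D-box and 0.428% a ROR element. Of the 25 clock genes measured, 21 had a window. CACGTG stood in 5 of them (Bhlhe41, Ciart, Cry1, Per1 and Tef), CACGTT in 3 (Cry1, Cry2 and Nr1d1), a D-box in 2 (Per3 and Timeless) and a ROR element in 0. For every gene only the window listed first was searched, over the 250 bases before the start. A count of 0 therefore does not show that these genes lack the element. Among the 12 genes leading on the dusk side, 11 had a window, of which Tef held an E-box and Per3 the D-boxes; among the 12 leading on the dawn side, 8 had one, of which Prmt1 held an E-box. Per2, Spon2, Tshr and Fmo1 have no printed window.

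The period genes encode the negative arm of the loop. Per3 measured 400.8, 492.5, 478.0, 434.3 and 399.8 in the dawn pools ZT22, ZT46, ZT2, ZT26 and ZT50, and 1335, 1309, 808.5 and 961.9 in the dusk pools ZT10, ZT34, ZT14 and ZT38. The groups were far apart, with every dusk pool above every dawn pool and the pools at 10 h above those at 14 h in both cycles. Per3 was 2.41-fold higher at dusk (-1.27 ± 0.14 SE; limma adjusted p = 0.0176; without ZT46 -1.31, adjusted p = 0.0207). Midday pools (773.0 and 734.2) and midnight pools (556.5 and 543.6) fell between the groups.

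Per2 measured 624.8, 524.3, 438.2, 366.2 and 422.8 at dawn and 1051, 889.2, 952.0 and 1067 at dusk, in the same order of pools. The groups did not overlap; at dusk the pool at 14 h lay below that at 10 h in the first cycle and above it in the second. The difference was 2.08-fold (-1.05 ± 0.13 SE; limma adjusted p = 0.0281; without ZT46 -1.09, adjusted p = 0.0390). Per1, the period gene that also answers to light and glucocorticoids, was 1130, 1087, 1926, 1260 and 1152 at dawn against 2839, 2485, 1383 and 1183 at dusk. Its groups overlapped, since only the 2 pools at 10 h stood clear of ZT2, and its difference did not pass (-0.52 ± 0.26 SE; limma adjusted p = 0.965).

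Tef measured 763.1, 716.5, 907.2, 709.4 and 696.1 at dawn and 1763, 1700, 1233 and 1305 at dusk. It was 1.94-fold higher at dusk with no overlap (-0.96 ± 0.12 SE; limma adjusted p = 0.0281; without ZT46 -0.94, adjusted p = 0.0460). Its relatives Dbp and Hlf also had higher dusk means but did not pass in the 9 pools. Dbp had the widest difference of all genes on the dusk side, 3.45-fold (-1.79 ± 0.32 SE), yet its limma adjusted p was 0.171. Its dawn values were 438.1, 476.0, 903.2, 460.7 and 369.1 and its dusk values 2652, 2738, 1027 and 1324. The dusk pools were split by time, with both at 10 h at least 2652 and both at 14 h at most 1324, and ZT2 was the highest dawn pool. Hlf measured 797.2, 798.2, 794.9, 572.4 and 651.2 at dawn and 1259, 1396, 1128 and 1096 at dusk, again without overlap (-0.75 ± 0.11 SE; limma adjusted p = 0.0710, and 0.0546 without ZT46). With all 13 pools in the limma fit, both Dbp (adjusted p = 0.0330) and Hlf (0.0291) passed. Nfil3, their antagonist, had the opposite sign (0.14 ± 0.06 SE; limma adjusted p = 0.908).

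**Figure D1:**
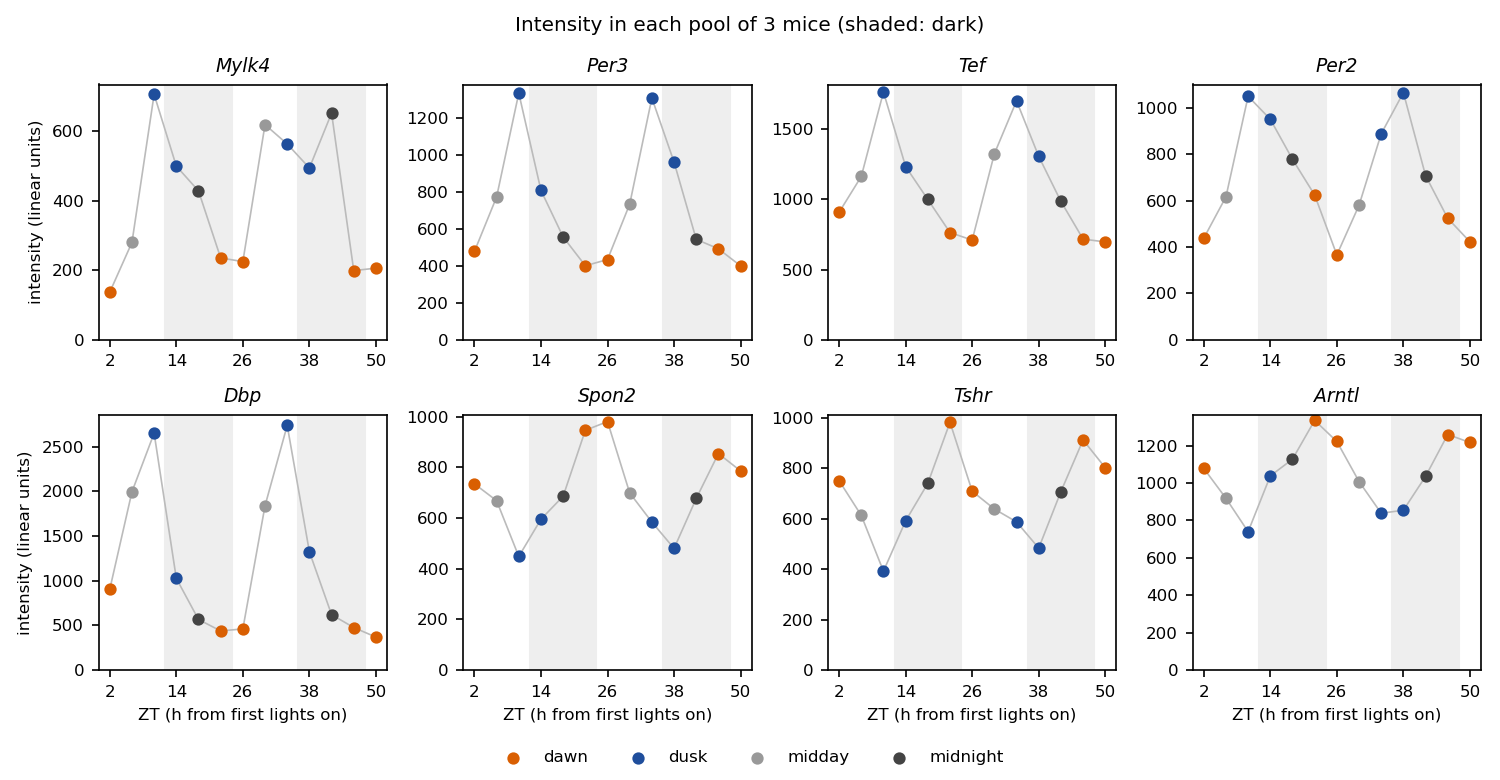
Intensity (linear units, axis from 0) of 8 genes in each of the 13 pools against ZT in hours; orange marks dawn, blue dusk, light grey midday and dark grey midnight pools, and shading marks darkness. In Mylk4, Per3, Tef, Per2 and Dbp every dusk pool lies above every dawn pool, and in Spon2, Tshr and Arntl every dusk pool lies below.

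The other repressors of the loop had lower means at dawn to varying degrees, and none passed the test without covariates. Nr1d2, which encodes REV-ERBβ, was 598.6, 634.6, 1250, 957.6 and 737.7 at dawn and 1904, 2323, 1313 and 1330 at dusk, a difference without overlap (-1.04 ± 0.23 SE; limma adjusted p = 0.390). With light or dark as a factor in the fit, Nr1d2 passed (-1.10, limma adjusted p = 0.0257). Nr1d1, which encodes REV-ERBα, ranged from 924.0 to 3282 at dawn and from 1266 to 4430 at dusk and overlapped widely (-0.59 ± 0.44 SE; limma adjusted p = 0.991). Its values ran apart within each group: the dark dawn pools ZT22 and ZT46 measured 934.1 and 924.0 and the light dawn pool ZT2 3282, so an average over 22 h and 2 h holds unlike levels for this gene. Cry2, a cryptochrome that blocks CLOCK and BMAL1, was 858.2 to 946.2 at dawn and 1046 to 1309 at dusk (-0.34 ± 0.07 SE; limma adjusted p = 0.291). Bhlhe41, an E-box repressor, was 495.9 to 644.8 at dawn and 647.3 to 819.0 at dusk (-0.28 ± 0.09 SE; limma adjusted p = 0.764), groups that did not overlap but nearly touched. Ciart, another repressor of CLOCK and BMAL1, overlapped through ZT14 (-0.58 ± 0.20 SE; limma adjusted p = 0.828). Cry1 (-0.14), Bhlhe40 (-0.14) and Timeless (-0.05) differed little.

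All 11 measured core repressors had a negative difference, with a median of -0.52 (-0.40 without ZT46) beside -0.01 over all genes tested. Of the 11, 2 passed (Per2 and Per3) and 6 had an unadjusted limma p under 0.05 with dusk higher (3.66% over all genes). In 5 the groups did not overlap, a separation with dusk higher that 171 genes (1.05%) showed in all. The 4 genes of the list of PAR bZIP factors and Nfil3 had a median of -0.85, 1 of them passed, and 3 did not overlap.

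On the activating side Arntl, which encodes BMAL1, was 1334, 1259, 1078, 1221 and 1216 at dawn and 739.7, 837.9, 1037 and 854.2 at dusk. Dawn was 1.41-fold higher without overlap, ZT2 and ZT14 being the neighbours (0.49 ± 0.09 SE), but the limma adjusted p was 0.206 and 0.260 without ZT46. Clock, the partner gene, had groups that overlapped (0.18 ± 0.09 SE; limma adjusted p = 0.971). Rora (-0.12) and Rorb (-0.02), which encode activators at ROR elements, differed by less. The 6 kinase and ubiquitin genes that set the stability of clock proteins (Btrc, Csnk1d, Csnk1e, Fbxw11, Gsk3b and Usp2) lay between -0.11 and 0.07, with a median of 0.01, and 0 of the 6 had an unadjusted p under 0.05 in limma. Over the 25 measured clock genes of the 29 listed, 3 passed, 8 had dusk pools all above dawn pools and 1, Arntl, the reverse, which 104 genes (0.637%) showed in all.

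Mylk4, chosen by the test and in none of the clock lists, gave the widest difference that passed. It measured 235.5, 199.1, 137.0, 225.1 and 206.2 at dawn and 706.6, 563.8, 500.1 and 494.7 at dusk. The lowest dusk pool (494.7) lay far above the highest dawn pool (235.5), and the difference was 2.70-fold (-1.43 ± 0.15 SE; limma adjusted p = 0.0171; without ZT46 -1.44, adjusted p = 0.0207). At midday ZT6 measured 280.1 and ZT30 619.5, and at midnight 428.7 and 652.7, so the pools outside the contrast spread over the range of both groups.

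Skeletal muscle markers, like Mylk4, had lower means at dawn. Of 25 measured muscle markers, 24 had a negative difference (8987 of 16322 over all genes), with a median of -0.32 (-0.23 without ZT46). In limma 0 passed and 3 had an unadjusted p under 0.05 with dusk higher (3.66% over all genes). Only 1 separated the groups: Tcap, the titin cap, was 162.5 to 219.1 at dawn and 229.6 to 321.6 at dusk (-0.56 ± 0.11 SE; limma adjusted p = 0.206). Lmod2, an actin filament nucleator of muscle, was -0.47 ± 0.13 SE (limma adjusted p = 0.638). The summed intensity of the list was 51312 (ZT2) to 99519 (ZT26) at dawn and 78303 (ZT38) to 98319 (ZT10) at dusk. In the dawn pools ZT26 and ZT50 the sum was as high as at dusk (99519 and 92799), with Mylk4 at 225.1 and 206.2, below the lowest dusk value of 494.7. Within the dusk pools Mylk4 stood in the same order as the sum (ZT10 98319, ZT34 88905, ZT14 85055, ZT38 78303). The sum and Mylk4 were also higher together in ZT30 (109058) than in ZT6 (75580), and in ZT42 (107750) than in ZT18 (59193). With the mean muscle level as a covariate, an alternative chosen after seeing the data, Mylk4 differed by -1.29, Per2 by -1.17 and Hlf by -0.87, and all of these passed (limma adjusted p = 0.0382 for each). Per3 (-1.29, adjusted p = 0.0506) and Tef (-0.996, adjusted p = 0.0784) no longer passed, with differences as large as without it. With the muscle and adipocyte levels together as covariates Mylk4 differed by -1.18 (limma adjusted p = 0.628) and 0 genes passed in either direction. Per3 (-1.48), Tef (-1.08) and Per2 (-1.02) kept differences near or above those of the fit without covariates. The adipocyte level was higher on average at dusk (values below), so this covariate shares part of the contrast. How much of the contrast it takes up was not tested. In whole skin, fewer cells of a type and less RNA per cell cannot be told apart.

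**Figure D2:**
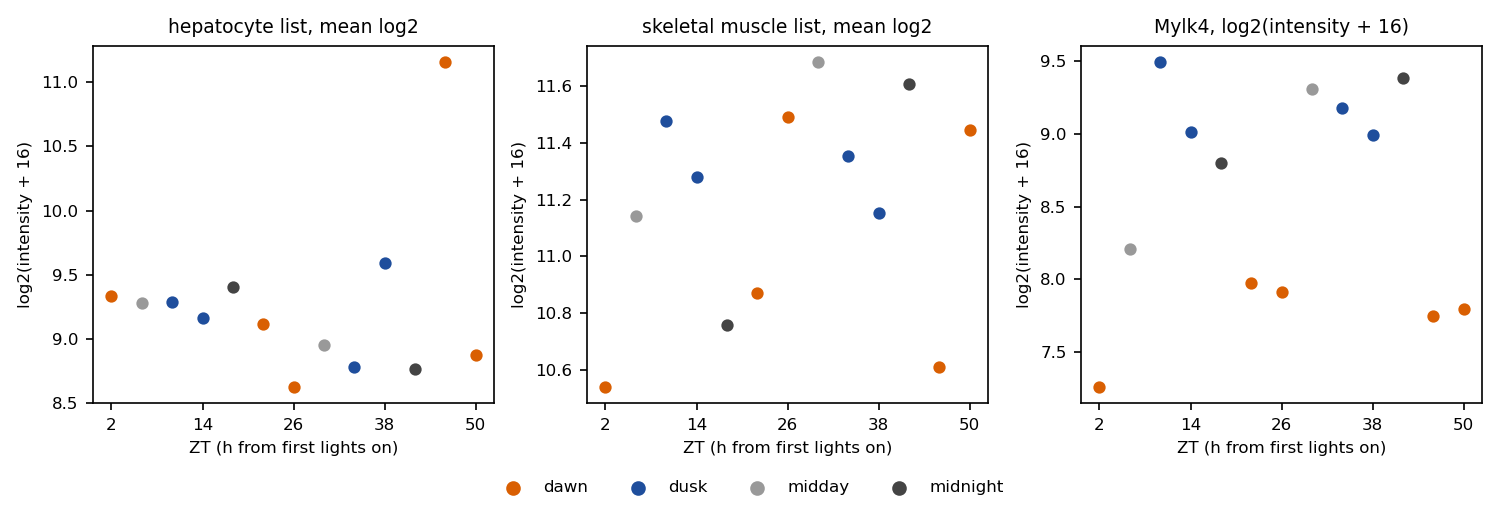
Mean log2(intensity + 16) of the hepatocyte list and of the skeletal muscle list, and the level of Mylk4 on the same scale, in each of the 13 pools against ZT in hours (axes do not start at 0; orange for dawn, blue for dusk, greys for midday and midnight). ZT46 stands apart on the hepatocyte list, and the dawn pools ZT26 and ZT50 reach dusk levels on the muscle list but not in Mylk4.

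Further genes led the dusk side without passing in the 9 pools. Rgs7bp, which encodes a membrane anchor of R7 RGS proteins, measured 466.5, 519.8, 459.8, 469.1 and 485.4 at dawn and 618.2, 658.1, 598.7 and 638.9 at dusk. Its groups were tight and apart (-0.38 ± 0.05 SE; limma adjusted p = 0.0594, and 0.0460 without ZT46). Il31ra, which encodes part of the receptor of IL-31, a cytokine of itch, was 274.6, 259.4, 271.2, 273.3 and 243.8 at dawn against 379.1, 416.8, 466.6 and 344.5 at dusk. Every dusk pool exceeded every dawn pool (-0.57 ± 0.08 SE; limma adjusted p = 0.0594, and 0.0816 without ZT46). Fam13a was 174.4 to 195.4 at dawn and 242.3 to 376.3 at dusk (-0.70 ± 0.11 SE; limma adjusted p = 0.0776). Esr1, the estrogen receptor alpha gene, differed little in size but cleanly, with 807.3 to 850.9 at dawn and 977.4 to 1032 at dusk (-0.28 ± 0.04 SE; limma adjusted p = 0.0868). Tspan4, a tetraspanin (-0.63 ± 0.09 SE), Angptl7, a secreted angiopoietin-like protein (-0.62 ± 0.11 SE), and Cys1, which encodes the ciliary protein cystin (-0.42 ± 0.07 SE), had limma adjusted p-values of 0.0643, 0.151 and 0.151, and Cys1 passed without ZT46 (0.0493). With all 13 pools in the limma fit, each of these 7 genes passed, with adjusted p-values from 0.0169 to 0.0456. All 12 genes leading on the dusk side had groups that did not overlap, and their choice by p-value favours this.

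On the dawn side 0 genes passed in limma, and the smallest adjusted p was 0.0776. It belonged to Spon2, which encodes the secreted matrix protein spondin 2 and measured 945.9, 854.1, 734.7, 980.3 and 785.5 at dawn and 448.2, 584.0, 595.0 and 479.9 at dusk. Dawn was 1.62-fold higher without overlap (0.69 ± 0.11 SE), and the midday and midnight pools (668.2 to 698.8) lay between the groups. Tshr, the receptor of thyrotropin, was 981.5, 911.5, 750.1, 708.5 and 801.4 at dawn and 391.7, 586.9, 590.9 and 483.1 at dusk. It was 1.61-fold higher at dawn, also without overlap (0.69 ± 0.13 SE; limma adjusted p = 0.206). Aplnr, the apelin receptor of endothelium, was 1056, 1077, 1175, 1084 and 1006 at dawn and 850.5, 858.3, 724.0 and 723.8 at dusk. The groups were apart (0.45 ± 0.07 SE; limma adjusted p = 0.0851), and midday (1156 and 1009) matched dawn while midnight (796.9 and 846.9) matched dusk. With all 13 pools in the limma fit Spon2 (adjusted p = 0.0169) and Aplnr (0.0330) passed.

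The remaining dawn-side leaders were smaller or less even, and none passed. Adamts4, an aggrecan-cleaving protease, had the widest dawn-side difference of all genes (0.78 ± 0.20 SE; limma adjusted p = 0.558), with 391.5 to 587.9 at dawn and 211.8, 273.1, 477.1 and 220.3 at dusk. ZT14 alone among the dusk pools reached the dawn range, and without ZT14 the difference was 1.03 (limma adjusted p = 0.0379). Serpinb12, a serpin of epithelia (0.48), Hpgd, which breaks down prostaglandins (0.34), Rpp40, a ribonuclease P subunit (0.26), Prmt1, an arginine methyltransferase (0.20), and Ppp1r14b, a phosphatase inhibitor (0.20), had groups that did not overlap. Eif4a3, a helicase of the exon junction complex (0.31), and Spryd3 (0.28) had groups that did. In all, 9 of these 12 dawn-side genes did not overlap.

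**Figure D3:**
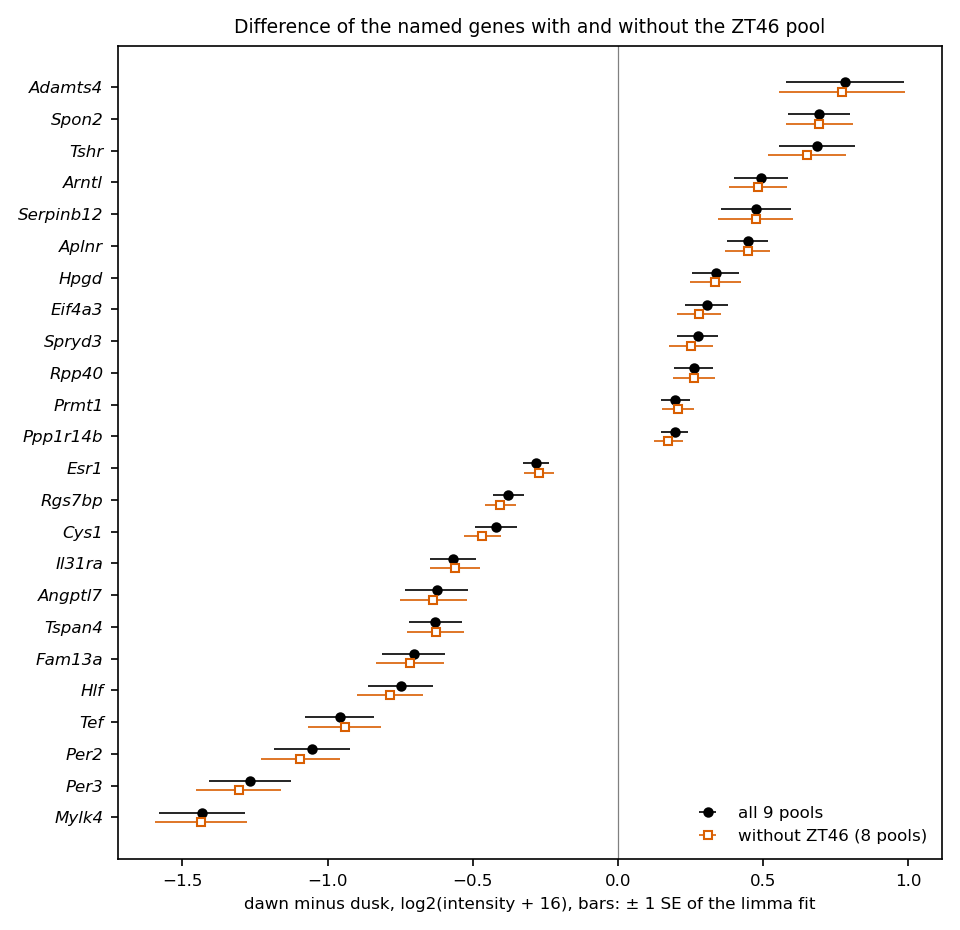
Dawn minus dusk difference in mean log2(intensity + 16) of the 12 leading genes on each side, as points with ± 1 SE of the limma fit, over all 9 pools (filled) and over the 8 pools without ZT46 (open squares). No gene moves by more than 0.0472 between the fits.

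ZT46 carried liver transcripts. Of 20 measured hepatocyte markers, 19 had their highest value of the 13 pools there. For each marker the mean of the other dawn pools was taken from ZT46, and the median of these differences was 2.34 log2, beside 0.0144 over all genes. Albumin (Alb) was 10035 in ZT46 and 1150 to 3295 in the other dawn pools. The summed intensity of the list was 56421 in ZT46, 13394 to 20299 in the other dawn pools and 16282 to 23586 at dusk. The list's median difference turned from 0.29 with 18 of 20 members positive to -0.19 with 18 negative once ZT46 was left out, the only 1 of 36 lists whose median changed sign. Cyp2e1, a cytochrome P450, went from -0.91 to -1.33 (limma adjusted p = 0.965 and 0.196) and Fgg, a fibrinogen chain, from 0.67 to 0.11. Over all genes the difference moved by a median of 0.0185 when ZT46 was left out.

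The contrast was also taken within the light pools (2 h minus 10 h) and within the dark pools (22 h minus 14 h). For the 21 of the 24 leading genes whose groups do not overlap, the sign in every such subset is fixed by that choice, so only the sizes are described. Mylk4 differed by -1.68 in light and -1.14 in dark, Per3 by -1.56 and -0.96, Per2 by -1.21 and -0.80, and Tef by -1.16 and -0.77. Dbp differed by -2.29 and -1.32, while Nr1d2 was nearly even, with -1.12 and -1.08. The light pair of times stood further apart in each, least so in Nr1d2. The interaction, light minus dark, was -0.60 ± 0.17 SE for Per3, with an unadjusted limma p of 0.00737, and -0.54 ± 0.28 SE for Mylk4. Over all genes 0 passed this limma test, 179 (1.1%) had an unadjusted p under 0.05, and no adjusted p came near the threshold.

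The 6 smallest p-values of the interaction belonged to Coq3, an enzyme of ubiquinone synthesis (-0.53), Iqck (0.52), Add2, an adducin of the membrane skeleton (0.42), Pccb, a subunit of propionyl-CoA carboxylase (-0.39), Gnmt, glycine N-methyltransferase (-0.90), and Dusp1, a phosphatase induced by stress and glucocorticoids (-0.43). Dusp1 shows the form of such a difference, with 3036 and 2867 in the pools at 10 h and 2095 to 2340 in every other dawn or dusk pool, a separation not past the adjusted test.

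**Figure D4:**
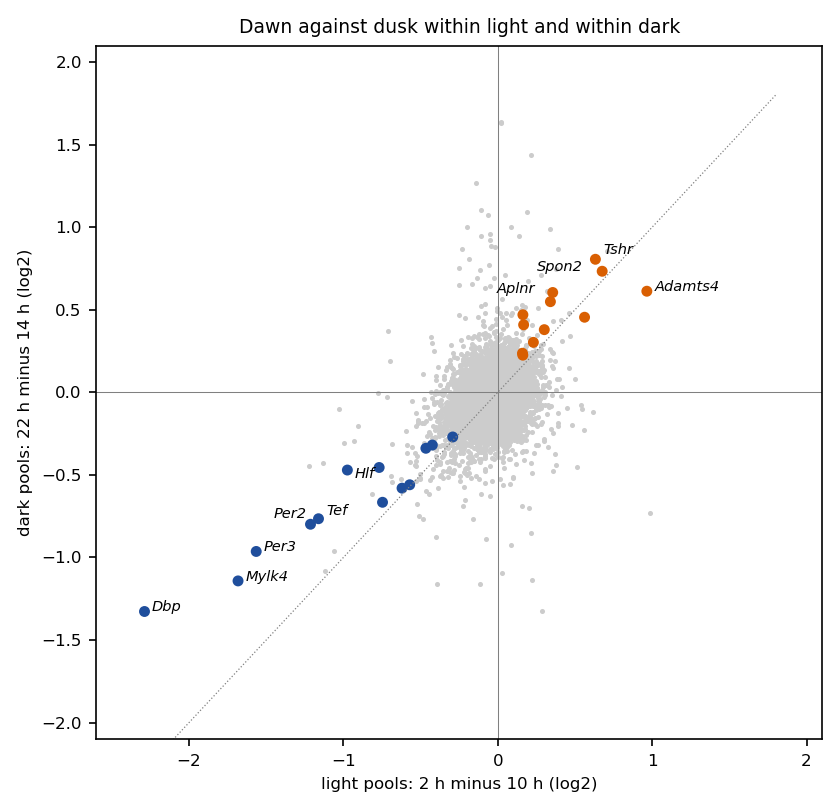
Dawn minus dusk difference (log2) in the dark pools, 22 h minus 14 h, against that in the light pools, 2 h minus 10 h, for all genes tested (grey), with the leading genes of the dusk side and Dbp in blue and those of the dawn side in orange; the dotted line marks equal differences. The coloured genes lie in the lower left and upper right, and Mylk4, Per3, Per2, Tef and Dbp lie above the dotted line.

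Of 20 measured genes that follow the clock in many tissues, 12 had a negative difference, a share near that over all genes (8987 of 16322), with a median of -0.15 beside -0.01. In limma 0 passed, 10 had an unadjusted p under 0.05 with dusk higher (3.66% over all genes) and 1 with dawn higher (1.73%). Groups that did not overlap made up 1.05% of all genes with dusk higher and 0.637% with dawn higher. In 7 the dusk pools all lay above the dawn pools (Tspan4, Tsc22d3, Fmo2, Cys1, the lipin gene Lpin1, Marveld1 and the fatty acid receptor gene Ppara), and in 1, the transferrin receptor gene Tfrc (0.26 ± 0.07 SE; limma adjusted p = 0.566), all below. Wee1, the mitotic inhibitor kinase that clock proteins regulate in liver, was 1049 to 1307 at dawn and 1239 to 1591 at dusk and overlapped (-0.26 ± 0.09 SE; limma adjusted p = 0.828). The list was written with earlier results of these data known, and it shares Tsc22d3 and Klf9 with the next list.

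Of 18 measured glucocorticoid targets, 15 had a negative difference, beside 8987 of 16322 genes in all, with a median of -0.16. That median was -0.25 over the light pools (2 h minus 10 h) and -0.01 over the dark pools (22 h minus 14 h). In limma 0 passed, 7 had an unadjusted p under 0.05 with dusk higher (3.66% over all genes) and 2 with dawn higher (1.73%). Dusk was higher without overlap in 2 (1.05% over all genes). Tsc22d3, the glucocorticoid-induced leucine zipper gene, was 591.3 to 807.9 at dawn and 840.4 to 1330 at dusk (-0.68 ± 0.13 SE; limma adjusted p = 0.210). Fkbp5, a chaperone partner of the receptor, was 422.0 to 520.2 at dawn and 552.3 to 813.3 at dusk (-0.48 ± 0.11 SE; limma adjusted p = 0.390). Zbtb16, a transcription factor named here after its values were seen, measured 1525 and 1586 at 10 h and 616.8 in ZT38, inside the dawn range of 526.6 to 719.9. Over the light pools alone Zbtb16 passed (-1.22, limma adjusted p = 0.00711), and over the 9 pools it did not (-0.82 ± 0.23 SE, adjusted p = 0.642).

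Flavin monooxygenases and cytochrome P450 enzymes oxidise drugs, lipids and retinoids. Fmo1 measured 1360, 1519, 1078, 1201 and 1105 at dawn and 1917, 1733, 2347 and 1882 at dusk, with no overlap (-0.65 ± 0.11 SE; limma adjusted p = 0.151). ZT46 was the highest dawn pool, and without it Fmo1 passed (-0.72, limma adjusted p = 0.0493), as it did with light or dark as a factor (-0.62, adjusted p = 0.0414). Cyp4b1, which hydroxylates fatty acids, was 718.8 to 883.2 at dawn and 930.9 to 1230 at dusk (-0.39 ± 0.08 SE; limma adjusted p = 0.336). Of the 13 genes of the list, 0 passed over the 9 pools in limma, and the median was -0.06. With dusk higher, 5 had an unadjusted p under 0.05 (3.66% over all genes) and 4 did not overlap (1.05%). Among aldehyde dehydrogenases and glutathione transferases, Aldh3a1 (-0.40 ± 0.11 SE; limma adjusted p = 0.571) and Gstt1 (-0.34 ± 0.08 SE; limma adjusted p = 0.414) were apart between the groups, while the median over 17 genes was 0.00.

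Adipocyte markers had slightly lower means at dawn, with 14 of 15 members negative (8987 of 16322 over all genes) and a median of -0.14. Dusk was higher without overlap in 4 (1.05% over all genes). In limma 6 had an unadjusted p under 0.05 with dusk higher (3.66% over all genes), and 0 passed. Cidec, which builds large lipid droplets, was 2183 to 3098 at dawn and 3540 to 4303 at dusk (-0.49 ± 0.10 SE; limma adjusted p = 0.294). Slc2a4, the insulin-dependent glucose transporter gene, was 663.8 to 747.5 at dawn and 804.5 to 911.2 at dusk (-0.27 ± 0.06 SE; limma adjusted p = 0.353). The summed intensity of the list was 49728 to 53898 at dawn and 54399 to 59064 at dusk, without overlap. The mean log2 of the list did overlap, with 11.184 to 11.381 at dawn and 11.345 to 11.500 at dusk. This level thus shares part of the contrast in the covariate fit above, and its part in the other genes' differences was not tested. Pdk4, the fasting-induced brake on pyruvate use, leaned to dawn with overlap (0.68 ± 0.26 SE; limma adjusted p = 0.908).

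Genes of the hair follicle and epidermis were level between dawn and dusk. The summed hair keratins ran from 190705 to 207595 at dawn and from 184076 to 211649 at dusk, and the differentiated epidermis list from 115056 to 120031 and from 113989 to 126900, so markers of both were high in every dawn and dusk pool. Hair keratins, matrix and papilla regulators, basal epidermis and differentiated epidermis (17, 16, 16 and 17 genes) had medians from -0.04 to 0.00. Their members lay between -0.18 and 0.11, and 0 were called. Among them 2 had an unadjusted limma p under 0.05, both with dusk higher (3.66% over all genes). Bmp4, a signal that restrains hair growth, was 3469 to 4025 at dawn and 4041 to 4253 at dusk, groups that did not overlap (-0.17 ± 0.06 SE; limma adjusted p = 0.866).

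The lists of cell division, repair and energy genes showed no wide gap in their medians either. The G1/S and replication list (29 genes) had a median of -0.03 with members from -0.07 to 0.08, and 0 had an unadjusted limma p under 0.05. The 27 genes of G2/M and mitosis had a median of 0.05, and 1, the mitotic kinase gene Aurka, had such a p (0.15 ± 0.06 SE; limma adjusted p = 0.916). Nucleotide excision repair (18 genes, median 0.01), oxidative phosphorylation (29 genes, 0.01), glycolysis and pyruvate use (20 genes, 0.00) and oxidant defence (19 genes, 0.02) had medians close to that of all genes. Single members of the glycolysis list lay further out, from -0.27 to 0.68, the upper end being Pdk4. In these 6 lists 0 genes passed the limma test, and the 7 unadjusted p-values under 0.05 outside G2/M were spread over the last 4. Over all genes 3.66% had such a p with dusk higher and 1.73% with dawn higher. Midday and midnight levels of these lists are outside this contrast.

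The medians of immune and nerve markers were small, those of mast cells and of T and NK cells lying near that of adipocytes (-0.14). T and NK cell genes were negative in 7 of 7 members (8987 of 16322 over all genes) with a median of -0.12. Mast cell genes had a median of -0.15 and macrophage and dendritic cell genes of -0.06. Without ZT46 the medians of these lists were -0.14 (T and NK cells), -0.18 (mast cells) and -0.08 (macrophages and dendritic cells). Of these immune genes 0 passed in limma, and 3 had an unadjusted p under 0.05 with dusk higher (3.66% over all genes). Schwann cell and nerve genes had a median of -0.09 (-0.10 without ZT46, then negative in 7 of 7). Melanocyte genes had a median of 0.06 and endothelial and lymphatic genes of 0.04. Both measured erythroid genes, Alas2 of heme synthesis (0.37 ± 0.15 SE; limma adjusted p = 0.909) and the red cell anion exchanger gene Slc4a1 (0.18 ± 0.07 SE; limma adjusted p = 0.916), had higher dawn means and overlapping groups. Each had an unadjusted limma p under 0.05 with dawn higher (1.73% over all genes), and their median was 0.27 (0.22 without ZT46). In 26 of the 36 lists the median lay within 0.1 of 0, and in 34 lists 0 members passed.

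**Figure D5:**
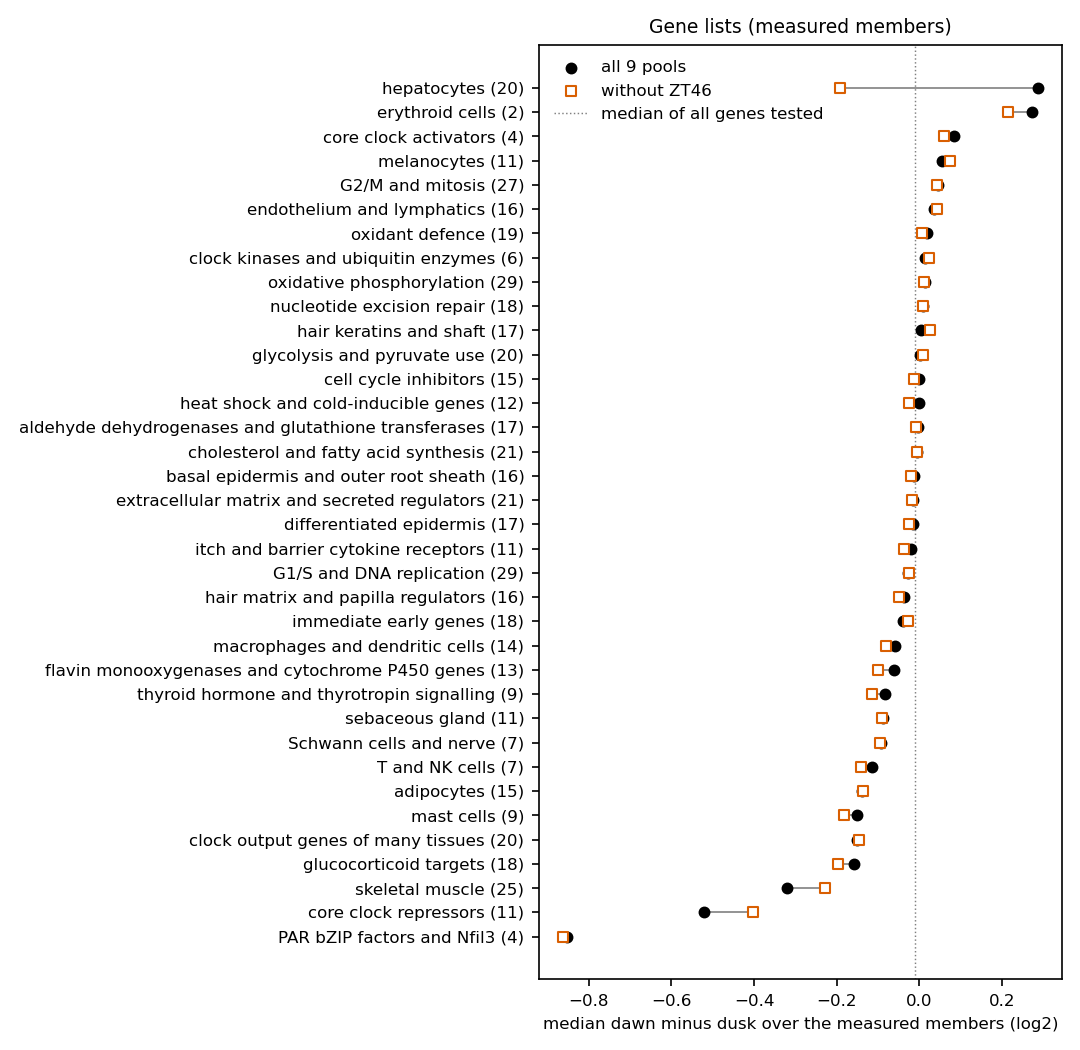
Median dawn minus dusk difference (log2) over the measured members of the 36 gene lists, with the number of members in brackets, over all 9 pools (filled) and without ZT46 (open squares); the dotted line marks the median of all genes tested. The PAR bZIP and repressor lists lie lowest, and the hepatocyte list alone crosses 0.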

How the data were processed

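Values came from the series' table of 13 one-colour Affymetrix arrays, which the authors deposited as 1 intensity per probe on a linear scale. The submitters' processing notes name Affymetrix Expression Console 1.1.1 and PLIER 2.0 without saying what each did. Scaling between arrays and the genome build are not given in the sources used here. Array medians were 440.0 to 483.2, pool correlations 0.979 to 0.994, and the number of arrays limits the precision.

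Groups came from the collection times in the labels. Of 35557 probes, GEO's platform annotation gives 21789 a single gene symbol, 1621 several and 12147 none; 21698 of the single symbols stood in RefSeq's table (GRCm38.p6) and 0 were updated. Intensities were not rescaled and were taken to log2(value + 16). Single-symbol probes averaging no less than the 25th percentile (7.61 log2) were kept, the brightest for each of 831 genes with several, which left 16322 genes with a median residual SD of 0.106.

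Dawn minus dusk and its interaction with light were fitted in limma 3.58.1 (R 4.3.3; lmFit, eBayes) without covariates, adjusted by Benjamini-Hochberg over all genes and called at 0.05. The code was tested on simulated data, and figures and motif searches used Python 3.11.15 with matplotlib 3.10.9. Named genes are the 12 per direction with the largest differences among those called, filled up by smallest p; all measured clock genes; up to 2 members of every other list; and 6 for the interaction. Predicted genes, RIKEN clones, small RNAs and chemoreceptors were passed over. Alb, Fmo2, Lpin1, Marveld1, Ppara, Tfrc and Zbtb16 were named outside the rule after their values were seen, as was Hsd11b2. The members and lists were chosen with earlier results of these data known. The 36 lists hold 595 genes, 527 of them measured, and lists are described by counts and medians only. Alternatives were other pools, covariates, scalings, pseudocounts, filters, probes, moderation, thresholds and a rank test.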

Additional observations from a re-analysis of the deposited data

Results flagged for a closer look

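In 282 groups of pools (each named gene and list, at dawn and at dusk) the gap between the most extreme pool and its neighbour was divided by the group's range, and 14 exceeded Dixon's 95% value; chance gives about 1 in 20. Among dawn pools, ZT2 was the high pool for Dusp1 (0.773), Per1 (0.743) and Dbp (0.718). ZT46 was the high dawn pool for the list of T and NK cells (0.791), the hepatocyte list (0.721) and the mitotic checkpoint gene Mad2l1 (0.717).

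Among dusk pools, ZT34 was high for Cidec (0.957), and ZT14 was high for Aldh3a1 (0.89), Sox10 (0.867) and the list of thyroid hormone and thyrotropin signalling (0.841). ZT38 was low for H2-Eb1 (0.877), Aurka (0.836) and the list of macrophages and dendritic cells (0.832), and high for Angptl7 (0.849).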

How the results depend on the processing

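Over 9 pools, leaving out each in turn gave 0 to 10 genes higher at dusk and 0 to 1 higher at dawn, where 4 and 0 were called. The dusk count was 0 without ZT10, ZT34 or ZT50, 1 without ZT26, 2 without ZT22, 7 without ZT46 and 10 without ZT38; the dawn gene without ZT14 was Adamts4. Mylk4 passed in 6 of 9 such fits (differences -1.49 to -1.31), Per3 (-1.40 to -1.17) and Tef (-1.05 to -0.88) in 4 each and Per2 (-1.16 to -0.97) in 2. The dusk count was 14 with all 13 pools, 13 with median centring, 10 with the hepatocyte level as covariate, 8 with quantile normalization or pseudocount 64, 7 with the 50th percentile filter (which removed Mylk4) or a trended robust prior, and 2 with no filter. It was 0 over dark pools, the first cycle or the second, with muscle and adipocyte levels as covariates, by the rank test, and at adjusted p under 0.01. The rank test could pass no gene after adjustment, so its 0 is not informative. The adipocyte level shares part of the contrast, which limits what the 0 with that covariate shows. Fits over dark pools (ZT22 and ZT46 against ZT14 and ZT38) or over 1 cycle held few pools. A 0 there does not show that the difference is absent. The dawn count was 3 with median centring (Spon2, Tshr and Arntl), 2 with all 13 pools, the 50th percentile filter or the trended prior, and 1 with quantile normalization or the hepatocyte covariate. The interaction count was 0 to 1 on leaving out a pool; the gene without ZT38 was Hsd11b2 (2.25, limma adjusted p = 0.0270), which measured 2577 in ZT14 and 446.0 to 573.8 in the other dawn and dusk pools. The cause was not tested. The dusk count was 3 over light pools or with the muscle level alone as covariate (chosen after seeing the data), and 4 to 6 with linear time, cycle or light as covariate, pseudocount 1, every probe kept or a fold of 1.5. Of 2854 values of named genes, 2729 kept their side of the threshold, 65 gained and 47 lost the call, 13 moved without a call, and 0 called values reversed. Most of these values are of genes not called in the main fit. Only the 4 called genes could lose a call, and all 47 losses were theirs, so the total does not measure how stable the 4 calls were. The labels give no replicate numbers that pair dawn with dusk pools, so no paired test was run. The cycle, known from the collection times, entered as a factor, with ZT50 counted with the second cycle. Each cycle was also fitted alone, the second without ZT50. With 4 or 5 pools a group and 3 mice pooled in each, differences near the spread between pools could not be resolved.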
